A study of Xenopus laevis with 2 samples.

Results

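Genes for the maintenance and removal of DNA methylation were examined for open chromatin in Xenopus laevis embryos before zygotic genome activation (ZGA). Members were the genes of the RefSeq v10.1 table with the base symbol dnmt1, dnmt3a, tet1, tet2, tet3 or uhrf1, in whichever L and S copies the table lists. Of 44438 genes on assembled chromosomes, 8 met this rule, namely the L and the S copies of dnmt1, uhrf1, tet2 and tet3. The table used here has no entry under dnmt3a or tet1, and these genes were not analysed here. A locus was the gene with 10 kb on each side, and the 8 loci together spanned 693104 bp.

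The series held 1 group of 2 replicates of wild-type whole embryos. Per the labels, each embryo received 2.3 ng of the pRN3P_AID-Dam-only construct (Dam mRNA) at the 1-cell stage, and 500 embryos per replicate were pooled at 256 cells, 4.5 h after fertilization. Embryos without the construct were not analysed here. Accessibility was read by CATaDa, in which unfused Dam, a methylase from bacteria, adds methyl groups to GATC sites wherever DNA is open, and each replicate was deposited as a list of broad peaks. The lists held 325940 peaks in replicate 1 and 277520 in replicate 2 on assembled chromosomes. Read numbers are not part of a peak list. Sequencing depth is therefore unknown, and a missing peak does not show closed chromatin. Peak lists carry no expression values, so cell type markers could not be checked, and open chromatin cannot be assigned to some cells of the embryo or to all of them.

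Dnmt1 copies the methylation pattern of the parental strand onto newly made DNA after each replication. Uhrf1 binds the half-methylated sites left by replication and brings Dnmt1 to them. Tet enzymes oxidize methylated cytosine, which starts its removal. X. laevis is allotetraploid, so most genes exist as a pair of homeologs on an L and an S chromosome. In Xenopus, loss of maternal Dnmt1 has been linked to early transcription before ZGA, and Tet3 to eye and neural development.

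All 8 loci carried peaks, and peaks recurred between replicates at each of them. A peak was called recurring when it shared at least 1 bp with a peak of the other replicate. Replicate 1 held 99 peaks at the 8 loci, of which 64 recurred (64.6%), and replicate 2 held 91 peaks, of which 66 recurred (72.5%). Over all peaks of the series, 66.6% of replicate 1 and 77.8% of replicate 2 recurred. A recurring peak was present at 8 of 8 loci, and 95.1% of 34461 protein-coding genes had one in the same window. Inside the gene alone, 8 of 8 members had one, against 72.6% of protein-coding genes and 97.9% of the 11254 with a span of at least 30 kb. The member genes spanned from 39941 to 151492 bp, so their counts are near the background of long genes.

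**Figure D1:**
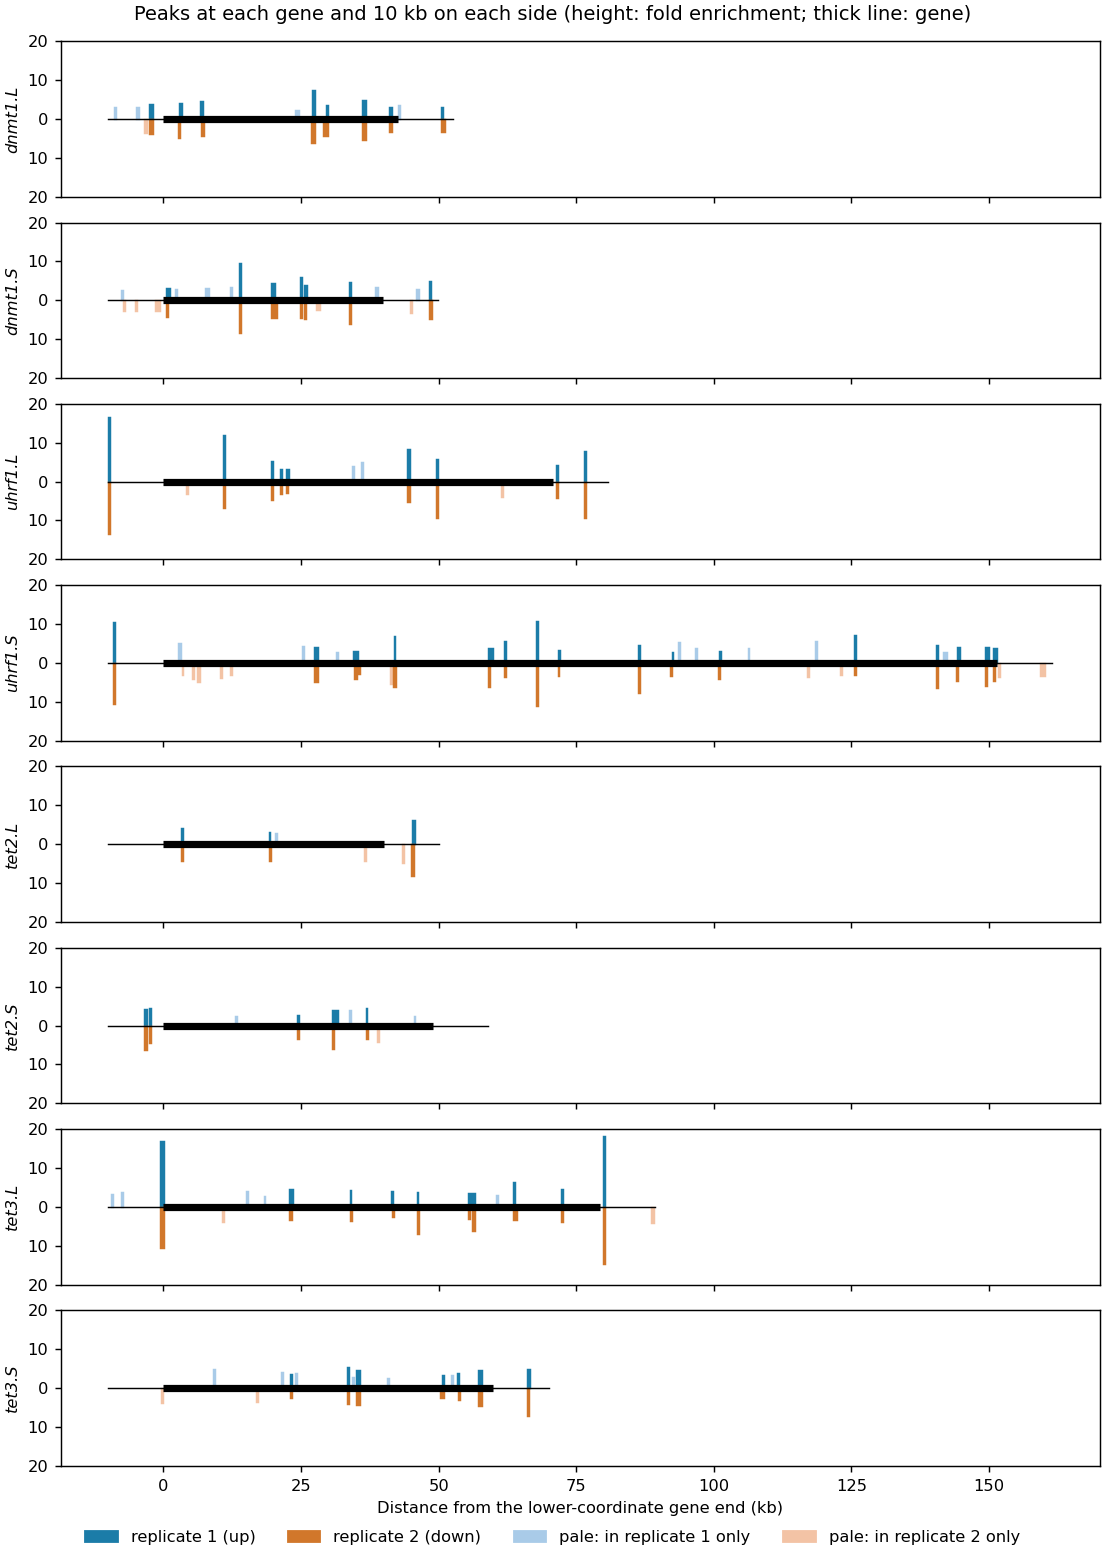
Peaks at the 8 loci, drawn against the distance from the gene end with the lower coordinate (kb). Bar height is the authors' fold enrichment, upward for replicate 1 and downward for replicate 2, pale bars are peaks without overlap in the other replicate, and thick lines are genes. In replicate 1 the highest bars stand at both ends of tet3.L and at the outer edge of the uhrf1.L locus. In replicate 2 a bar of uhrf1.S, at 11.0, exceeds that over the lower end of tet3.L, at 10.6.

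The loci differed in how much of them lay in peaks. With all listed peaks, both dnmt1 copies were highest in each replicate and tet2.L was lowest by the mean. Dam marks DNA only at GATC, and coverage was not corrected for the density of this motif, which may differ between loci and between L and S copies. In replicate 1, 6.50% of all positions at the 8 loci were in peaks, and in replicate 2 it was 6.00% (mean 6.25% ± 0.355, SD, n = 2). The median locus had 6.47% in replicate 1, against a median of 5.12% over protein-coding genes, and 5.72% against 4.74% in replicate 2. With all listed peaks, 5 members lay above the median of protein-coding genes in both replicates and 2 below it. Of all protein-coding genes, 39.2% lay on each of these sides. No test was run on these values, since 2 replicates of 1 group would give only a weak one and genes are not replicates.

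dnmt1.L (gene ID 399257; 3L, 146626799 to 146669389) had 10.3% of its locus in peaks in replicate 1 and 9.27% in replicate 2 (mean 9.77% ± 0.704, SD, n = 2). dnmt1.S (gene ID 100036795; 3S, 122373204 to 122413144) had 10.1% in each replicate (mean 10.1% ± 0.0295, SD, n = 2). The parts of this locus agreed less, with 12.1% and 9.38% of the gene and 6.11% and 11.6% of the flanks in peaks. The replicates of the L and S copies of this maintenance methyltransferase overlapped. The dnmt1.L value was above that of 96.5% and 94.0% of protein-coding genes in replicates 1 and 2, and the dnmt1.S value above that of 96.0% and 96.2%. With the upper 50% of peaks by fold enrichment, the mean of these shares fell to 64.4% for dnmt1.L and to 84.9% for dnmt1.S. With a -log10 q of at least 2 it was 95.1% for dnmt1.L and 85.4% for dnmt1.S. With a fold enrichment of at least 3 it was 96.0% and 85.3%. Under these last 2 settings, dnmt1.S coverage was 7.69% ± 1.91 and 7.23% ± 1.25 (SD, n = 2), and dnmt1.L coverage was 9.26% in both. With the upper 50% of peaks, dnmt1.L had 3.02% ± 0.0407 and tet3.S had 2.49% ± 1.31 (SD, n = 2). The replicates of these 2 loci then overlapped. In peaks per 10 kb, with all listed peaks, dnmt1.L lay above 87.9% and 76.7% of protein-coding genes in replicates 1 and 2. For dnmt1.S these shares were 93.7% and 94.6%. In replicate 2, dnmt1.L had 1.44 peaks per 10 kb, below the 1.57 of uhrf1.S.

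The peaks of dnmt1.L were the widest of the 8 loci by median. There, 12 peaks in replicate 1 and 9 in replicate 2 had a median width of 610 and 655 bp, and 8 of each list recurred. The highest recurring peak of the locus lay inside the gene, from 146653723 to 146654366 in replicate 1, with a fold enrichment of 7.41 in replicate 1 and 6.09 in replicate 2. Counted from the lower-coordinate end, the gene held 2 recurring peaks, followed by 16519 bp without any peak in either replicate.

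At dnmt1.S, 13 and 12 peaks were listed, and 7 of each recurred. The highest, from 122386913 to 122387279 inside the gene, had the same coordinates in both lists and a fold enrichment of 9.68 and 8.41. Another peak with identical coordinates in both lists lay from 122397968 to 122398337, with 5.90 and 4.56. The longest stretch without a peak was 5928 bp, the shortest such value of the 8 loci.

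Next to dnmt1, both subgenomes carry eif3g, which encodes a translation initiation factor subunit. Its end lay 4848 bp from dnmt1.L and 4790 bp from dnmt1.S on the side of the lower coordinate. Between eif3g.L and dnmt1.L, a recurring peak stood from 146624120 to 146624898 in replicate 1, with a fold enrichment of 3.88 and 3.98. This interval also lies within LOC121401628, a long noncoding RNA gene that overlaps the lower end of dnmt1.L, so the peak cannot be assigned to either gene. The first recurring peak inside dnmt1.L, from 146629558 to 146630189 in replicate 1, lies within LOC121401628 as well. No recurring peak lay in the lower flank of dnmt1.S.

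Of the uhrf1 copies, S had the higher coverage in both replicates. uhrf1.L (gene ID 108711828; 1L, 97401695 to 97472400) had 4.69% of its locus in peaks in replicate 1 and 4.57% in replicate 2. uhrf1.S (gene ID 432234; 1S, 79024316 to 79175807) had 6.58% and 6.33%. The annotated gene spanned 70706 bp on L and 151492 bp on S, so the 2 windows differ in size. With all listed peaks, uhrf1.L lay below the median of protein-coding genes in both replicates and uhrf1.S above it. The side on which uhrf1.L lay depended on the limit on peaks. With a -log10 q of at least 2, uhrf1.L lay above 50.6% ± 0.351 of these genes (SD, n = 2). With a fold enrichment of at least 3 this share was 48.4% ± 4.35 (SD, n = 2). With the upper 50% of peaks by fold enrichment, it was 57.7% ± 3.17 for uhrf1.L and 54.5% ± 13.1 for uhrf1.S (SD, n = 2).

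Of the 8 loci, uhrf1.L had the highest median fold enrichment, 5.23 in replicate 1 and 4.63 in replicate 2. Each replicate listed 11 peaks, and 9 of them recurred in each. The highest, from 97391679 to 97392020 in replicate 1, had a fold enrichment of 16.6 and 13.4, above 99.0% and 98.0% of all recurring peaks of the series. It crossed the edge of the 10 kb flank, which began at 97391695, and so stood at the limit of the rule. A recurring peak inside the gene from 97412518 to 97412864 had 11.9 and 6.77, and the one from 97478129 to 97478519 in the higher flank had identical coordinates in both lists, with 7.83 and 9.39.

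uhrf1.S held 24 peaks in replicate 1, of which 16 recurred, and 27 in replicate 2, of which 17 recurred. Its highest recurring peak, from 79091928 to 79092303 inside the gene, had identical coordinates in both lists and a fold enrichment of 10.8 and 11.0. A peak from 79015083 to 79015467 in the lower flank, again identical in both lists, had 10.4 and 10.5. In the higher flank, replicate 1 had no covered position and replicate 2 had 11.6%. In the gene, the first recurring peak stood 27363 bp from the lower end in replicate 1. Before it, replicate 1 listed 2 peaks and replicate 2 listed 5, none of them overlapping. The lncRNA gene LOC121399344 lies within the span of uhrf1.S.

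By the mean of the replicates, the tet2 loci were the least covered, although replicate 1 of tet2.S lay above both replicates of uhrf1.L. tet2.L (gene ID 108710731; 1L, 76975384 to 77015518) had 2.89% in replicate 1 and 3.56% in replicate 2, above 15.5% and 30.7% of protein-coding genes. tet2.S (gene ID 108706731; 1S, 61268262 to 61317270) had 5.18% and 3.29%, above 50.9% and 26.4%. The replicates of tet2.S spread further than those of any other member (SD 1.34 percentage points, n = 2), and the copies overlapped.

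At tet2.L, 4 and 5 peaks were listed, and 3 of each recurred. The peak from 76978541 to 76979029 inside the gene was identical in both lists, with a fold enrichment of 4.11 and 4.42. The highest recurring peak stood beyond the higher end of the gene, from 77020472 to 77021100 in replicate 1, with 6.23 and 8.25. At tet2.S, 8 and 6 peaks were listed, and 5 of each recurred. By geometric mean of the replicates, the highest of these lay from 61264802 to 61265232 in the lower flank, with 4.30 and 6.27. In replicate 1 alone, the recurring peak from 61265639 to 61266083 was higher, at 4.61. No tet2 gene end had a peak within 1 kb in either replicate.

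The tet3 copies had nearly the same coverage but unlike peaks. tet3.L (gene ID 108711530; 3L, 128305149 to 128384417) had 6.36% in replicate 1 and 5.94% in replicate 2. tet3.S (gene ID 108712780; 3S, 32572453 to 32632413) had 6.79% and 5.50%. The replicates of the copies overlapped, and the mean of L minus S was 0.00734 ± 0.613 percentage points (SD, n = 2).

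tet3.L carried the highest peak of the 8 loci. It lay beyond the higher end of the gene, from 128385007 to 128385352 in replicate 1, with a fold enrichment of 18.3 and 14.8, above 99.5% and 98.9% of all recurring peaks. A peak over the lower end, from 128304611 to 128305181 in replicate 1 and from 128304511 to 128305220 in replicate 2, had 17.0 and 10.6. Its -log10 q of 102 and 49.5 was the highest at the 8 loci in replicate 1. Between these 2 peaks, fold enrichment of recurring peaks in the gene did not exceed 6.43 in replicate 1 or 6.95 in replicate 2. The neighboring dusp11.L, a dual-specificity phosphatase gene, ended 5587 bp from the lower end of tet3.L.

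No peak of that height was found at tet3.S. By geometric mean, its highest recurring peak lay from 32638463 to 32639112 in the higher flank, with a fold enrichment of 4.84 and 7.10. In replicate 1 alone, the recurring peak from 32605756 to 32606085 was higher, at 5.32. Replicate 1 held 13 peaks and replicate 2 held 9, of which 7 recurred in each. At the lower end, only replicate 2 listed a peak, 128 bp outside the gene, with a fold enrichment of 3.81. A tRNA gene, trnae-uuc, lies within the span of both tet3 copies. On S, a recurring peak stood 237 bp from it, with a fold enrichment of 4.70 and 4.59. On L, the nearest recurring peak of replicate 1 stood 2312 bp away. tRNA genes have near-identical copies elsewhere in the genome, so the assignment of reads there is uncertain.

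Ranked by mean coverage, the order was dnmt1.S, dnmt1.L, uhrf1.S, tet3.L, tet3.S, uhrf1.L, tet2.S and tet2.L. Replicates of neighbors in this order overlapped except between dnmt1.L and uhrf1.S and between tet3.S and uhrf1.L. The plot of coverage by locus shows these steps.

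**Figure D2:**
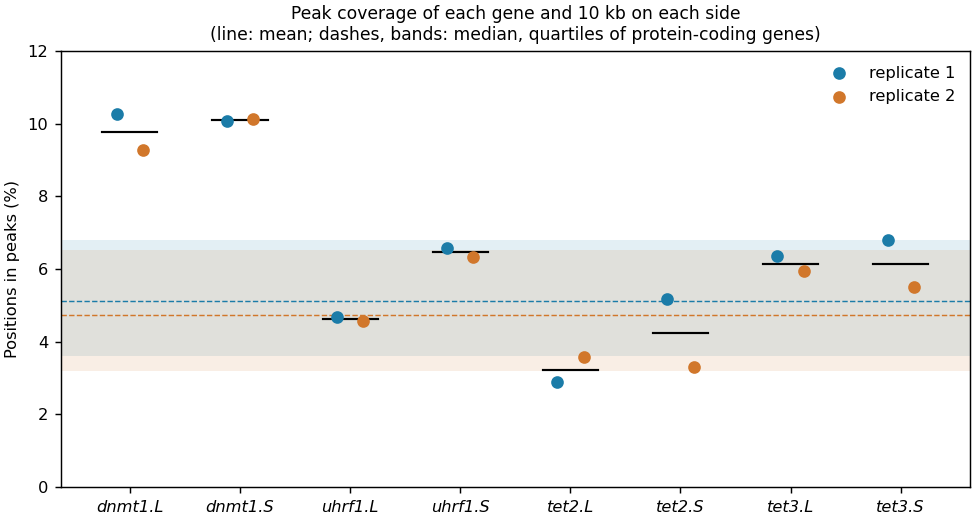
Share of positions in peaks (%) for each gene with 10 kb on each side, with 1 point per replicate and a black line at the mean. Dashed lines and bands give the median and quartiles of protein-coding genes per replicate, and only the dnmt1 copies lie above both bands in both replicates.

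L and S copies were then set against each other within each pair. A pair was called when both replicates of 1 copy lay above both replicates of the other. Only uhrf1 was called, with S above L, so S was higher in 1 of 4 pairs and L in none. Over all 7759 L and S pairs of the table, S was higher by this rule in 36.6% and L in 26.3%. Coverage of uhrf1.L minus that of uhrf1.S was -1.89 percentage points in replicate 1 and -1.76 in replicate 2 (mean -1.83 ± 0.0949, SD, n = 2). With the upper 50% of peaks by fold enrichment this difference became 0.113 ± 0.692. For dnmt1 the mean was -0.330 ± 0.733 and for tet2 -1.01 ± 1.81 (SD, n = 2), and the sign differed between replicates in both pairs.

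Inside the genes alone, S was above L without overlap for uhrf1 and tet3, which is 2 of 4 pairs against 34.3% of all pairs. L was above S in 0 of 4, against 26.1%. tet3.L had 6.07% and 5.50% of the gene in peaks, and tet3.S had 7.97% and 6.14%. dnmt1.L had 9.71% and 9.30%, and dnmt1.S had 12.1% and 9.38%. In the flanks the tet3 pair ran the other way, with 7.53% and 7.70% on L and 3.25% and 3.58% on S. L was thus higher in the flanks of 1 of 4 pairs, against 28.7% of all pairs, and S in 0 of 4, against 35.8%. The mean of L minus S in the tet3 flanks was 4.20 ± 0.113 percentage points (SD, n = 2). In peaks per 10 kb, S was above L without overlap in 3 of 4 pairs (dnmt1, uhrf1 and tet2), against 32.6% of all pairs. L was above S in 0 of 4, against 23.8%. Averaged over the 4 pairs, coverage of L minus S was -0.789 ± 0.446 percentage points (SD, n = 2), and it was 0.253 with a fold enrichment of at least 3. Over all pairs of the table the median was -0.388. A mean of 4 pairs and a median of all pairs are unlike measures, so the size of the gap between them was not read.

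**Figure D3:**
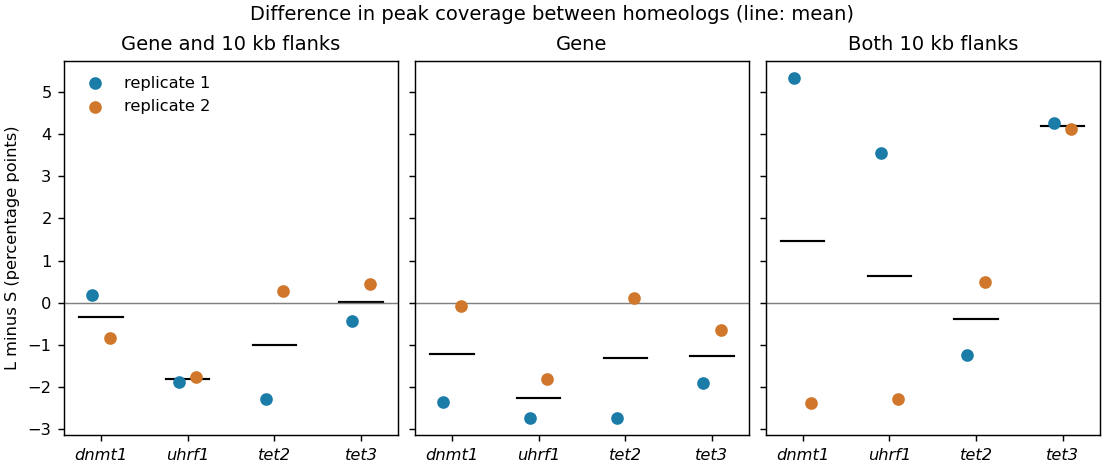
Coverage of the L copy minus that of the S copy (percentage points) for each pair, with 1 point per replicate and a black line at the mean. In the panel for gene and flanks only uhrf1 has both points on 1 side of 0, and in the flank panel only tet3 does.

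The order of genes and flanks differed between the replicates. Pooled over the 8 genes, 6.83% of the gene and 5.41% of the flanks lay in peaks in replicate 1, and 5.79% and 6.69% in replicate 2. The gene exceeded its flanks in both replicates only for tet3.S, 1 of 8 members against 35% of protein-coding genes and 38.4% of those of at least 30 kb. It lay below its flanks in both replicates for uhrf1.L, tet2.L and tet3.L, 3 of 8 members against 39.7% and 37.1%. The pooled difference was 0.262 ± 1.64 percentage points (SD, n = 2), and without replicate 1 it was -0.897.

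Gene ends stood in for promoters, because the gene table gives no strand or transcription start. Both ends of each gene were counted, and only 1 of them can be the start of the gene. A peak at an end, as at both ends of tet3.L, therefore cannot be called a promoter peak. Of 16 gene ends, 5 had a recurring peak within 1 kb, against 19.4% of all ends of protein-coding genes and 18.5% of those of genes of at least 30 kb. These were both ends of tet3.L, the lower end of dnmt1.S and the higher ends of uhrf1.L and uhrf1.S. At uhrf1.L the peak stood 648 bp outside the gene in replicate 1 and 664 bp in replicate 2, and its fold enrichment was 4.29 and 4.34. At uhrf1.S it ended 102 and 449 bp inside the gene, with 3.75 and 4.71. At dnmt1.S it began 516 and 456 bp inside the gene, with 3.11 and 4.34. A window of 500 bp retained 2 of these ends. A narrower window can only lower the count, and the share over all gene ends was not computed for it. Whether any peak lay in an exon, an intron or an untranslated region was not determined.

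The recurring peaks of the members were compared in fold enrichment, which the rule for members does not use. Members were still chosen with earlier results of these data known. Their median was 4.44 in replicate 1 and 4.54 in replicate 2, against 4.92 and 4.87 over all recurring peaks. Peaks without overlap had a median of 3.30 and 3.55 at the loci, against 3.65 and 3.73 over all such peaks. None of those at the loci exceeded 5.57 in replicate 1 or 5.52 in replicate 2. The smallest width that the caller listed, 310 bp in replicate 1 and 349 bp in replicate 2, was found for 29 and 28 peaks at the loci, and 20 and 13 of these did not recur. The same shares over all peaks were not computed, so these counts have no background and are not read as a trait of the loci.

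Recurring peaks formed 66 overlapping pairs at the 8 loci, and 8 pairs had both coordinates in common. The share of all pairs with both coordinates in common was not computed, so this count has no background. Whether shared coordinates lie at GATC sites was not determined. At least 1 edge was shared by 32 pairs (48.5%), against 43.6% of all 218030 pairs of the series. Spearman's rho of fold enrichment across the 66 pairs was 0.594. It is given as a description, since these peaks come from the same 2 libraries. The 3 peaks with the highest values in replicate 1, at uhrf1.L and at both ends of tet3.L, also had 10.6 or more in replicate 2.

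**Figure D4:**
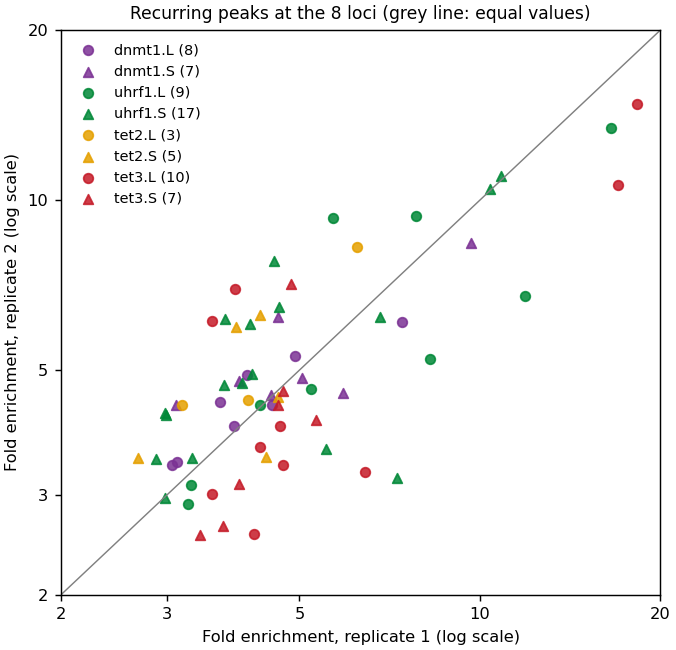
Fold enrichment of overlapping peaks at the 8 loci in replicate 1 (x axis) and replicate 2 (y axis), both on log scales, with the number of pairs per gene in brackets. The 3 points farthest to the right belong to tet3.L and uhrf1.L.

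Other genes of the pathway were taken from a list of readers of methylated DNA, CXXC proteins, base excision genes, partners of maintenance and other transferases. The table held 46 of these genes under 30 base symbols, whereas cxxc5, dnmt3b, dnmt3l and zbtb4 had no entry. Recurring peaks were present at 42 of 46 loci, against 95.1% of protein-coding genes, and the exceptions were apex1.L, gadd45g.L, gadd45g.S and zbtb38.L. In that order these genes spanned 6082, 1906, 1886 and 29514 bp, each less than any member, so their windows were smaller. No background matched for gene length was computed for this list. In both replicates 20 lay above the median coverage of protein-coding genes and 16 below it, against 39.2% on each side, with a list median of 5.15% in replicate 1 and 5.34% in replicate 2.

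Among 14 genes for proteins that bind methylated DNA, 8 lay above that median in both replicates and 4 below it, with a median of 6.56% and 7.32%. mbd1.L and mbd1.S, which encode a methyl-CpG binding protein, had 8.53% and 9.55%, and 8.39% and 9.25%. zbtb38.L, a zinc finger gene of this group, had 1.93% and 0.747% and no recurring peak. Of 10 genes for partners of Dnmt1 or Uhrf1, 5 lay above and 1 below. hells.S, which encodes a chromatin remodeler needed for DNA methylation in mouse, had the highest coverage of the list, 12.6% and 13.7%, whereas hells.L had 6.99% and 3.17%.

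The 16 genes of base excision repair and the Gadd45 family had 5 members above and 7 below, with a median of 4.05% and 4.55%. No peak was listed at apex1.L or gadd45g.S in either replicate. tdg.S, the glycosylase gene that acts on bases oxidized by Tet, had 4.02% and 6.17%. Among 5 genes of CXXC proteins, 2 lay above and 3 below. cxxc1.S, which encodes a CpG-binding subunit of an H3K4 methyltransferase complex, had 9.42% and 8.89%. It lies on 8S from 26214464 to 26220561, and mbd1.S lies from 26228609 to 26239279. Their 10 kb flanks overlap, so part of the coverage is counted for both genes and the 2 values are not separate observations. trdmt1.L, the only gene in the table that the list groups as an other transferase, had 2.82% and 4.05%. This grouping does not show that its product methylates DNA.

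**Figure D5:**
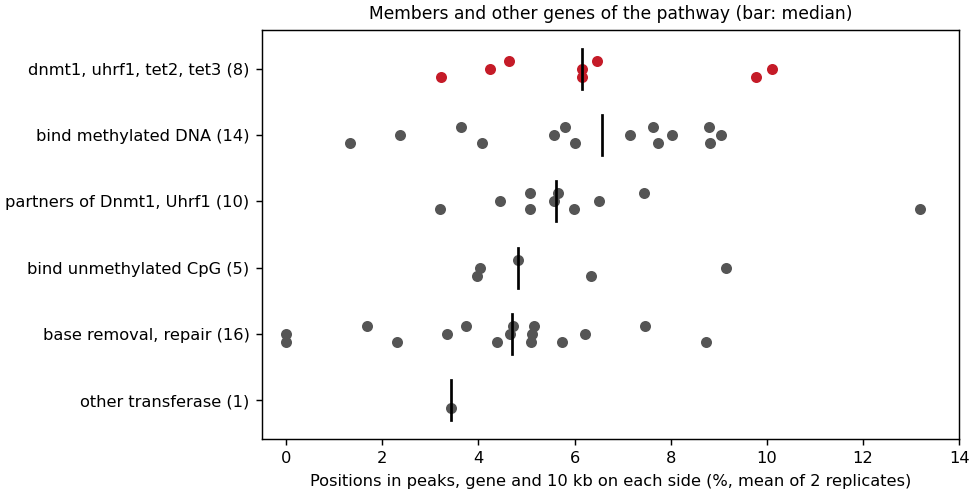
Share of positions in peaks (%), mean of 2 replicates, for the 8 members (red) and the 46 other genes of the pathway by role (grey), each point being 1 gene with 10 kb on each side and each bar a group median. The members range from 3.23% to 10.1%, and hells.S, at 13.2%, is the point farthest to the right.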

How the data were processed

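CATaDa was performed by the authors on 2 independent replicates. Genomic DNA was cut with DpnI at methylated GATC, ligated to adapters, cut with DpnII and amplified. The authors mapped reads to assembly Xl.v10.1 with bowtie2 within the damidseq pipeline and called broad peaks with MACS 3.0.1 on each replicate. The control library, the cutoff and the treatment of reads that match both homeologs are not given in the sources used here. The deposited fold enrichment (a ratio of pileup to the background of the caller) and the deposited -log10 p and -log10 q are averages over the peak, and the deposited score was not used. Depth per sample is unknown, so no counting interval was given.

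Gene positions came from RefSeq v10.1. Coverage, peak number and recurrence were computed with Python 3.11.15, numpy 2.4.6 and pandas 2.3.3 for each gene with 10 kb on each side, and tested on simulated data. Coordinates count from 1. Results are descriptions, with mean and SD over replicates. All members were named, with the recurring peaks at gene ends and the highest recurring peak of each, ranked by the geometric mean over replicates. Members and lists were chosen with earlier results of these data known. Alternatives were limits of 2 on -log10 q and of 3 on fold enrichment, the upper 50% of peaks, merging within 500 bp, flanks of 5 kb or none, an overlap of at least 50%, gene-end windows of 500 bp, peaks per 10 kb and omission of each replicate.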

Additional observations from a re-analysis of the deposited data

How the results depend on the processing

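All 8 loci kept a recurring peak with the limits on -log10 q and fold enrichment, merging, flanks of 5 kb or none, an overlap of at least 50% and peaks wholly inside the flanks, and 7 did with the upper 50% of peaks by fold enrichment. No paired analysis was possible because the series holds 1 group. Coverage pooled over the 8 loci was 5.71% with a -log10 q of at least 2, 5.46% with a fold enrichment of at least 3 and 2.50% with the upper 50% of peaks. The median of the other pathway genes was 4.90%, 4.71% and 2.51%. A pooled share and a median over genes are unlike measures, so the 2 were not compared. These settings remove peaks by construction. The median of the other pathway genes was 5.50% after merging and 4.68% without flanks. Recurrence was 60.6% and recurring peaks at gene ends numbered 2 with the upper 50% of peaks, and also 2 with windows of 500 bp. Background shares for loci, recurrence and gene ends were computed only with all listed peaks and the main windows, and for loci also without flanks. Under the other settings these values at the members, including the 8 and the 7 loci, therefore have no background.

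The mean of L minus S was -0.0163 percentage points with the limit on -log10 q, 0.253 with a fold enrichment of at least 3 and -1.52 without flanks. L was above S in 1 pair, dnmt1, under each of the first 2 settings. The dnmt1 difference was then 1.57 ± 1.92 and 2.03 ± 1.27 percentage points (SD, n = 2), against -0.330 ± 0.733 with all peaks. With the upper 50% of peaks the dnmt1 difference ran the other way, at -1.45 ± 0.988 (SD, n = 2). Under that setting dnmt1 was the only pair called, with S above L. S was above L in 3 pairs after merging and in peaks per 10 kb, and in 2 pairs with flanks of 5 kb or none. Shares over all pairs were not computed for merging, for flanks of 5 kb or for the limits on peaks. Counts of called pairs under these settings therefore have no background. The uhrf1 difference was 0.113 with the upper 50% of peaks. The cause was not tested. Leaving out each replicate gave a coverage of 6.00% to 6.50% and an L minus S of -1.10 to -0.473. The gene minus flank difference was then -0.897 to 1.42 percentage points, and the pathway median 5.15% to 5.34%. In each remaining replicate 6 gene ends had a peak, recurring or not. The share over all gene ends was not computed for this count. The unknown depth limits all absent peaks. Ranks among genes of at least 30 kb, and the count of peaks wholly inside the flanks, were added after seeing the data. By these ranks of coverage, with all listed peaks and no limit on them, dnmt1.L lay above 99.0% of genes and dnmt1.S above 99.5%. In peaks per 10 kb, dnmt1.L lay above 95.4% and 85.3% of these genes in replicates 1 and 2, and dnmt1.S above 98.5% and 98.9%.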
